A study of Mus musculus with 6 samples.

Results

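The mitochondrial ribosomal protein genes were examined in Rb1L/L and Rb1+/+ mouse embryonic fibroblasts (MEFs). The set held every gene whose single annotated symbol starts with Mrpl or Mrps followed by a digit: 77 of the 19856 genes named on the array, 48 of the large subunit (Mrpl) and 29 of the small subunit (Mrps). Where a gene had several transcript clusters, the one with the highest mean over the 6 arrays was used. Mrpl53 shares its cluster with another gene and was not included. The set was defined by gene names and not by the values, but it was chosen with earlier results of these data known. All 77 genes passed the filter on dim signals, a mean above log2 5.084, with gene means between 6.69 and 11.34, and all were tested.

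The mitochondrial ribosome translates the few messages of the mitochondrial genome, which encode core subunits of the respiratory chain. Its ribosomal RNAs are made inside the organelle, whereas all of its proteins are encoded in the nucleus and imported. The small subunit binds the message and decodes it, and the large subunit joins amino acids into the chain. Many of these proteins descend from bacterial ribosomal proteins, and others have no counterpart in the bacterial ribosome.

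The study compared 3 Rb1L/L cultures with 3 Rb1+/+ cultures, 1 array each. Rb1 encodes pRb, a restrainer of E2F transcription factors and of entry into the cell cycle. Cells with the L allele make a pRb whose docking surface for LXCXE partners is changed. In Rb1L/L cells both copies carry it, in all tissues; Rb1+/+ cells are wild type. Both groups were MEFs from E13.5 embryos, grown to passage 4 and harvested while proliferating, and the labels name no drug or other allele.

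Rb1 measured log2 8.96, 8.85 and 8.99 on the Rb1L/L arrays and 8.87, 8.61 and 8.99 on the Rb1+/+ arrays (limma adjusted p = 0.519). Since the L allele yields a message, this level is no check of the genotype. Xist and the Y-linked Eif2s3y showed 1 culture of male type in each genotype, the one numbered 1, and no member lies on a sex chromosome. Fibroblast markers such as Col1a1, Vim and Fn1 were bright on all arrays, with list medians of 11.63 to 11.75 in Rb1L/L and 11.70 to 11.87 in Rb1+/+ cultures. Of the 13 fibroblast markers none rose and 2 fell, Col3a1 (-0.33) and Lum (-0.39), with Dcn falling too in the fit with the replicate block; the median was -0.12 and 2 were positive. Of the 15409 genes tested, 1885 (12.2%) passed an adjusted p of 0.05, 1102 higher (7.15%) and 783 lower (5.08%) in Rb1L/L cultures; leaving out 1 array gave between 622 and 1441. In bulk cultures, fewer cells of a type and less RNA per cell cannot be told apart.

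In Rb1L/L cultures 21 members rose and 1 fell. That is 27.3% higher and 1.30% lower, beside 7.15% and 5.08% over all tested genes. The remaining 55 did not pass. Without Rb1L/L replicate 1 the number that rose was 9, without Rb1L/L replicate 2 it was 10 and without Rb1+/+ replicate 1 it was 13. With the replicate number as a block 26 members passed, beside 14.5% of all tested genes. The median log2 fold change of the 77 genes, Rb1L/L minus Rb1+/+, was 0.16 (middle 50% of genes from 0.01 to 0.30), beside -0.02 over all tested genes. Its sign was positive for 59 members (76.6%), against 43.7% of all tested genes. The changes were small: 3 genes differed by more than 1.5-fold, and 19 of the 22 genes that passed differed by less.

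On single arrays the 3 Rb1L/L values of a member lay above all 3 Rb1+/+ values for 45 genes (58.4%, beside 16.3% of all tested genes). They lay below for 7 genes (9.09%, beside 18.3%), and the groups overlapped for 25. So 24 genes stood apart upward without passing the test, and 6 stood apart downward without passing it. At an unadjusted p of 0.05, 45 members passed (58.4%, beside 28.8%). Genes of a set are not replicates of a genotype, so these counts are descriptions. The plot of change by gene shows the whole set.

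**Figure D1:**
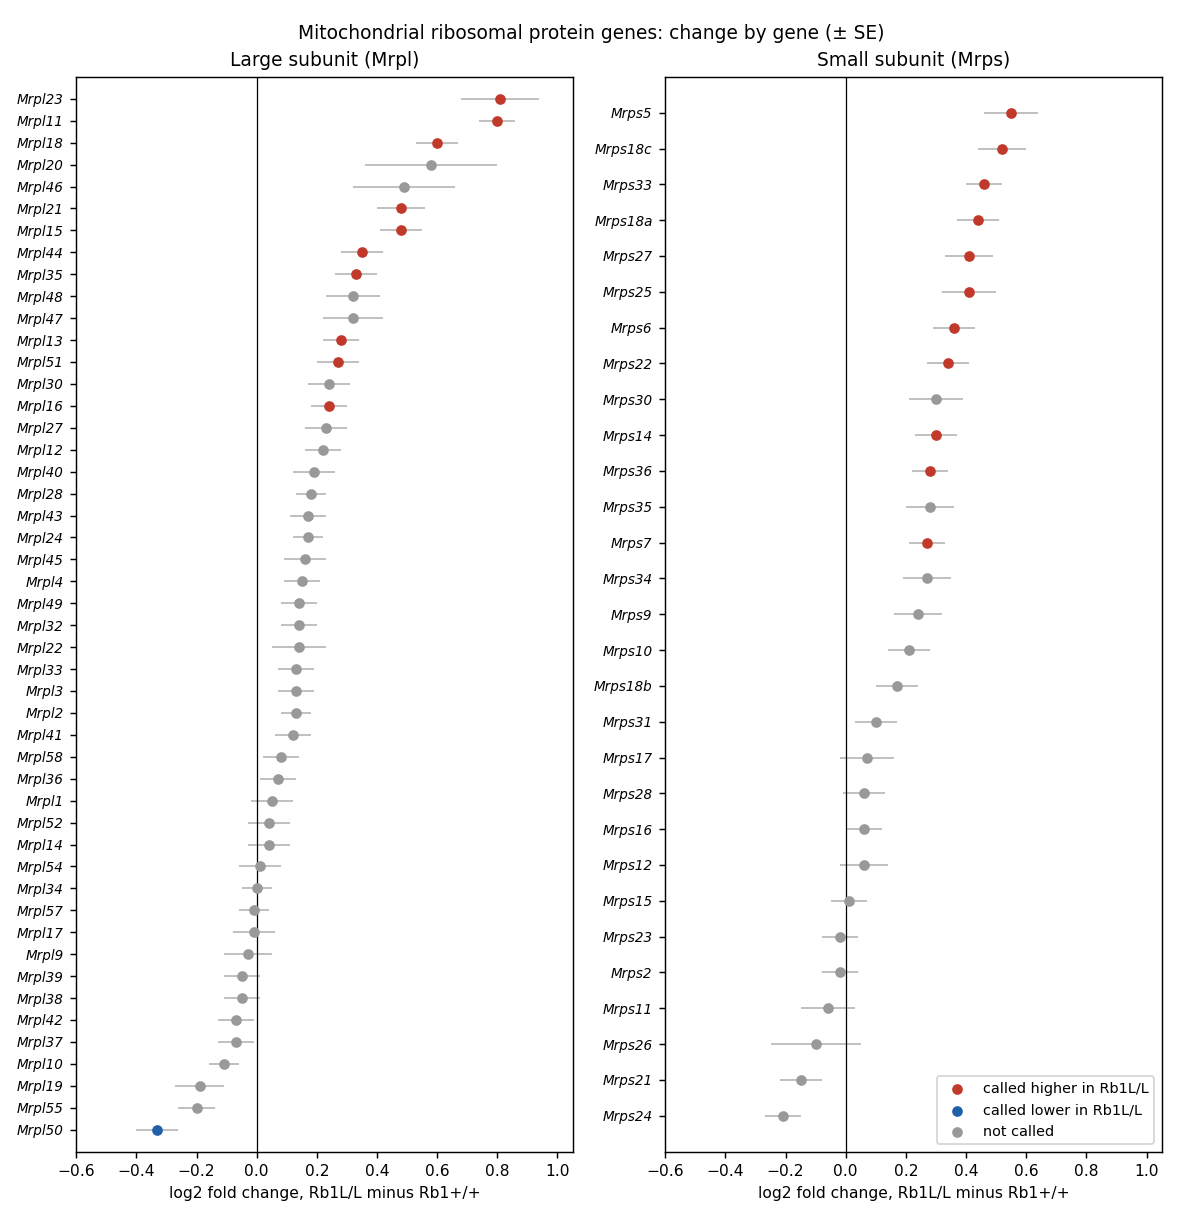
Log2 fold change (Rb1L/L minus Rb1+/+) of each of the 48 large subunit and 29 small subunit genes, with bars of 1 moderated SE. Red points passed the adjusted threshold as higher in Rb1L/L, the blue point, Mrpl50, as lower, and grey points did not pass; most points lie right of 0.

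In the large subunit, 10 of 48 genes rose and 1 fell, with a median log2 fold change of 0.14. Mrpl11 had the smallest p. Its protein sits at the base of the stalk to which translation factors dock. It measured log2 9.52, 9.58 and 9.58 on the Rb1L/L arrays, against 8.76, 8.81 and 8.73 on the Rb1+/+ arrays. Both groups were tight and far apart, a 1.74-fold rise (log2 fold change 0.80 ± 0.06 SE, limma adjusted p = 0.000999).

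Mrpl18 encodes a protein of the central protuberance, the knob where the subunits meet above the tRNAs. It measured 9.65, 9.66 and 9.67 in Rb1L/L cultures, against 8.98, 9.00 and 9.20 in Rb1+/+ cultures. The Rb1L/L arrays were nearly equal and all Rb1+/+ arrays lay lower, with replicate 3 the highest of them (0.60 ± 0.07 SE, adjusted p = 0.00353). Mrpl23, whose protein lies at the exit of the peptide tunnel, had values of 10.66, 10.68 and 10.61 in Rb1L/L cultures, against 9.82, 10.13 and 9.57 in Rb1+/+ cultures. Its rise was the largest of the set (0.81 ± 0.13 SE, 1.76-fold, adjusted p = 0.0084), and the Rb1+/+ arrays were more scattered (SD 0.28, n = 3) than the Rb1L/L arrays (SD 0.04, n = 3).

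Mrpl15 and Mrpl21, counterparts of bacterial large subunit proteins, each rose by 0.48. Mrpl15 read 9.89, 9.87 and 9.68 in Rb1L/L cultures, against 9.33, 9.29 and 9.38 in Rb1+/+ cultures (SE 0.07, adjusted p = 0.00732). Mrpl21 read 7.89, 7.98 and 7.76 in Rb1L/L cultures, against 7.38, 7.51 and 7.29 in Rb1+/+ cultures (SE 0.08, adjusted p = 0.0112). For both genes the groups did not overlap. Mrpl44, whose protein is related to RNase III, rose by 0.35, Mrpl35 by 0.33, Mrpl13 by 0.28, Mrpl51 by 0.27 and Mrpl16 by 0.24 (adjusted p from 0.017 to 0.0418). Of these 5, Mrpl44 and Mrpl51 have no counterpart in the bacterial ribosome. Mrpl16 did not pass after quantile normalization (adjusted p = 0.0609), nor Mrpl51 with its other cluster (0.34). Of the 6 fits that left out 1 array, Mrpl16 passed in none and Mrpl51 in 1.

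Mrpl50, also without a bacterial counterpart, was the only member that fell by this test; with quantile normalization Mrpl55 and Mrps24 fell too, and with an intensity trend Mrps24. It measured 9.49, 9.58 and 9.43 in Rb1L/L cultures, against 9.76, 9.80 and 9.92 in Rb1+/+ cultures. Every Rb1L/L value lay below every Rb1+/+ value (-0.33 ± 0.07 SE, adjusted p = 0.0213; past the threshold in 3 of the 6 fits that left out 1 array, and lost without Rb1L/L replicate 1, Rb1L/L replicate 3 or Rb1+/+ replicate 3).

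The members that did not pass included genes with sizeable but scattered differences. Mrpl20, whose bacterial counterpart is needed to assemble the large subunit, read 10.18, 10.18 and 10.03 in Rb1L/L cultures, against 8.97, 9.94 and 9.73 in Rb1+/+ cultures. Rb1+/+ replicate 1 stood apart, and the within-group spread of Mrpl20 was larger than that of 99.2% of tested genes (0.58 ± 0.22 SE, adjusted p = 0.116). Mrpl46 read 9.20, 9.07 and 8.52 in Rb1L/L cultures, against 8.63, 8.28 and 8.42 in Rb1+/+ cultures. Its groups overlapped (0.49 ± 0.17 SE, adjusted p = 0.0971, or 0.0403 with the replicate number as a block). At the other end, Mrpl34 (0.00 ± 0.05 SE), Mrpl57 (-0.01 ± 0.05) and Mrpl17 (-0.01 ± 0.07) differed by less than their SE. Mrpl12, the mobile stalk protein, stood at 0.22 ± 0.06 (adjusted p = 0.0571), and Mrpl10, which anchors the stalk, at -0.11 ± 0.05 (adjusted p = 0.216). Mrpl12 passed with an intensity trend (0.0444), with median centring (0.0458) and with the stricter filter.

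In the small subunit, 11 of 29 genes rose (37.9%) and none fell, with a median log2 fold change of 0.24; 18 of the 29 had an unadjusted p under 0.05. Mrps33, a small protein without a bacterial counterpart, had the smallest p. It read 9.48, 9.44 and 9.37 in Rb1L/L cultures, against 8.98, 9.03 and 8.91 in Rb1+/+ cultures. The groups stood well apart (0.46 ± 0.06 SE, adjusted p = 0.00483). Mrps5, whose bacterial counterpart bears on decoding accuracy, read 9.54, 9.41 and 9.44 in Rb1L/L cultures, against 9.03, 9.00 and 8.71 in Rb1+/+ cultures. All Rb1L/L values were higher, a 1.47-fold rise (0.55 ± 0.09 SE, adjusted p = 0.0109).

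The 3 Mrps18 genes encode different homologs of the same bacterial protein and sit at different places on the ribosome. Mrps18c, in the small subunit, read 9.30, 9.25 and 9.25 in Rb1L/L cultures, against 8.57, 8.83 and 8.84 in Rb1+/+ cultures (0.52 ± 0.08 SE, adjusted p = 0.0087). Mrps18a read 9.90, 9.99 and 10.13 in Rb1L/L cultures, against 9.54, 9.59 and 9.57 in Rb1+/+ cultures (0.44 ± 0.07 SE, adjusted p = 0.00944). Both genes rose. Mrps18b read 10.98, 11.02 and 10.99 in Rb1L/L cultures, against 10.68, 10.85 and 10.94 in Rb1+/+ cultures. Its groups did not overlap, but Rb1+/+ replicate 3 came close to the Rb1L/L arrays and the test was not passed (0.17 ± 0.07 SE, adjusted p = 0.171). The differences among the 3 changes were not tested.

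Of the other small subunit genes that rose, Mrps25 and Mrps27 changed by 0.41 each, Mrps6 by 0.36, Mrps22 by 0.34, Mrps14 by 0.30, Mrps36 by 0.28 and Mrps7 by 0.27 (adjusted p from 0.0169 to 0.0333). Mrps27 is a pentatricopeptide repeat protein and the bacterial counterpart of Mrps7 starts assembly of the head of the subunit. Mrps36 is now regarded as a part of the ketoglutarate dehydrogenase complex and not of the ribosome. Mrps30 (0.30 ± 0.09 SE, adjusted p = 0.063) and Mrps35 (0.28 ± 0.08, adjusted p = 0.0674) did not pass; Mrps30 passed with the replicate block (adjusted p = 0.0211) and with array weights (0.0451), and Mrps35 with array weights (0.0449) and median centring (0.049). Mrps12, of the decoding centre, was at 0.06 ± 0.08, Mrps2 at -0.02 ± 0.06 and Mrps15 at 0.01 ± 0.06. The most negative value was that of Mrps24 (-0.21 ± 0.06 SE, adjusted p = 0.0624).

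**Figure D2:**
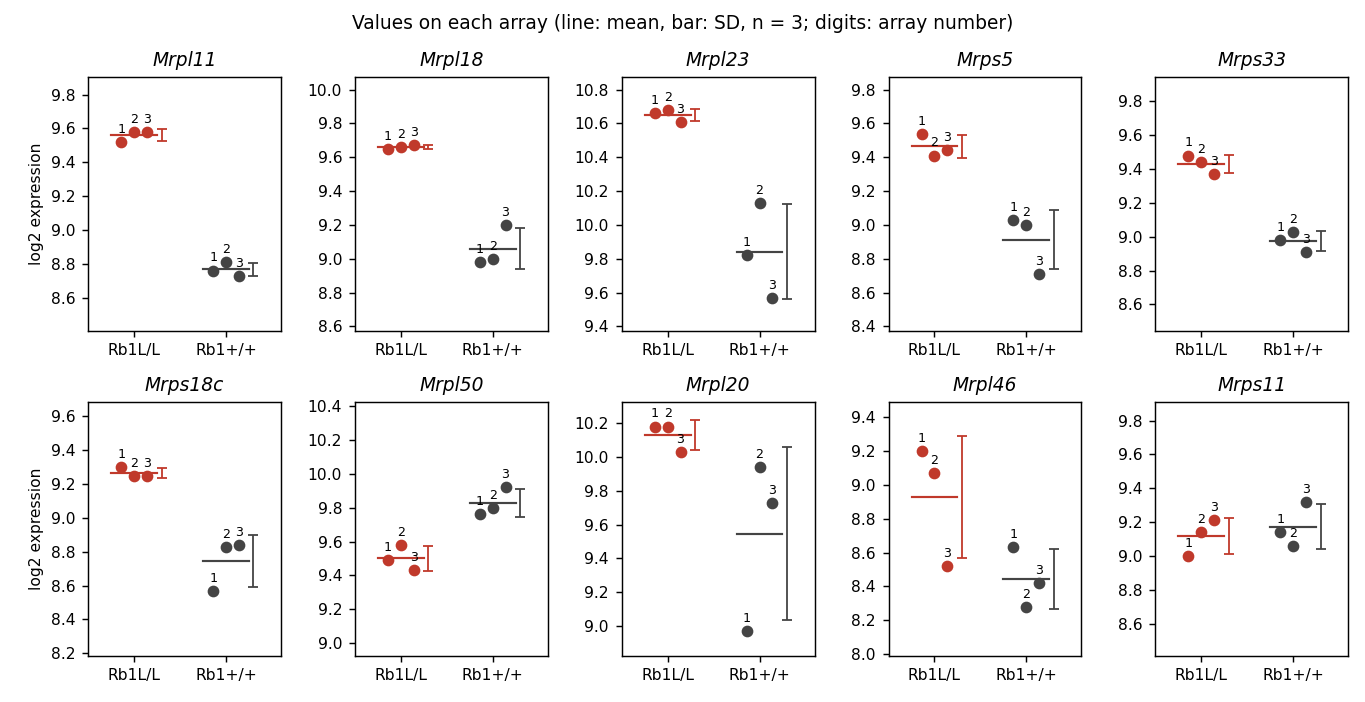
Log2 expression of 10 genes on each array, with Rb1L/L (red) left of Rb1+/+ (grey); lines are means, bars are SD (n = 3) and digits give the array number. Mrpl11 to Mrps18c are higher and Mrpl50 lower in Rb1L/L without overlap, Mrpl20 has 1 low Rb1+/+ array, and Mrpl46 and Mrps11 overlap.

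The promoters of 5 members are shown, those on which the results turn: the large subunit genes with the smallest p, Mrps18a, the gene that fell and Mrpl51, whose neighbour is described further on. Each run covers 250 bases before to 50 after the RefSeq start (GRCm38.p6), 5′ to 3′ on the gene's strand. Capitals mark matches on either strand to 5 kinds of motif: CCGGAAG for ETS factors, TGCGCA for the core of the NRF1 site, AAGATGG for YY1 and CACGTG for the E-box. For E2F the letters were TTCCCGC, with TTGGCGC as a variant form and TTCGCGC as another.
Mrpl11 (chr19:4962056-4962355, plus strand): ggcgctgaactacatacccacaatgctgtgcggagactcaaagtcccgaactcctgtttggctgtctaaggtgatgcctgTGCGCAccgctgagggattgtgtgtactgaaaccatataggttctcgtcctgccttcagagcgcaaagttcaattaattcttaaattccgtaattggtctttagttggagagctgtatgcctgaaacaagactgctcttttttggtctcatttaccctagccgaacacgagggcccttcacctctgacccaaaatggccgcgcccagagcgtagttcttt
Mrpl18 (chr17:12916042-12916341, minus strand): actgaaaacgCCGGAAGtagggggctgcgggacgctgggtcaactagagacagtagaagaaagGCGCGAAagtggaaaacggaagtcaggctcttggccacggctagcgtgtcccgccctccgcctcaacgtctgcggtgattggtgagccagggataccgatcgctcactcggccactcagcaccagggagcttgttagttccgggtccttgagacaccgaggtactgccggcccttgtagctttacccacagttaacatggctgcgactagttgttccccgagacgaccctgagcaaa
Mrps18a (chr17:46110754-46111053, plus strand): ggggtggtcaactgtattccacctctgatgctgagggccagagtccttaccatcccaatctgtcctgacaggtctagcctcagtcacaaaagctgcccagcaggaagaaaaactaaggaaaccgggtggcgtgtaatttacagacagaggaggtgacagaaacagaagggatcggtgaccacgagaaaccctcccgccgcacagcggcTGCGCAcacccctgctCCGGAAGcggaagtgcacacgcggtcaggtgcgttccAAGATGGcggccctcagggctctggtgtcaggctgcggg
Mrpl51 (chr6:125191950-125192249, plus strand): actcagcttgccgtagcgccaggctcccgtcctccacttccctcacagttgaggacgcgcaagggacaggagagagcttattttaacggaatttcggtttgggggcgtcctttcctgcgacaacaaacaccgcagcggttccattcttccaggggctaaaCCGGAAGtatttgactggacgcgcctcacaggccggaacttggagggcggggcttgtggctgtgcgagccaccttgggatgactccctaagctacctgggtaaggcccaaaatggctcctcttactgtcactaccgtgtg
Mrpl50 (chr4:49521034-49521333, minus strand): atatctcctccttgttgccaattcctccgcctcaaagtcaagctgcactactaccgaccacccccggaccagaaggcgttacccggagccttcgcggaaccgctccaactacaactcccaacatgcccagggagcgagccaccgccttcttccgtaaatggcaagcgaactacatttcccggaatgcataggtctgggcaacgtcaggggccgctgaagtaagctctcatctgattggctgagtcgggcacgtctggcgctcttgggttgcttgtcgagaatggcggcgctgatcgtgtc

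Mrpl11 holds the NRF1 core, Mrpl18 an ETS and an E2F match, Mrpl51 an ETS match, and Mrps18a the ETS, NRF1 and YY1 motifs. In Mrpl50 none of these letters was found. Over the 68 members with an entry, the ETS motif was in 25 (36.8%), the NRF1 core in 21 (30.9%), the YY1 motif in 13 (19.1%), an E2F motif in 13 (19.1%) and the E-box in 5 (7.35%). The shares in promoters of the 11783 tested protein-coding genes were 16.9%, 14.1%, 7.68%, 15.2% and 10.9%, and over all 27025 genes with a RefSeq promoter they were 9.93%, 8.79%, 7.28%, 9.20% and 8.09%. No motif contains another, but their ends can overlap.

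Members that passed and members that did not were compared for each motif. The ETS motif was in 8 of 20 members that passed and 17 of 48 that did not, the NRF1 core in 6 of 20 and 15 of 48, and the YY1 motif in 4 of 20 and 9 of 48. An E2F motif was in 6 of 20 that passed and 7 of 48 that did not, and the E-box in 1 of 20 and 4 of 48. The median log2 fold change of members with a motif, against those without it, was 0.14 against 0.17 for ETS, 0.14 against 0.18 for the NRF1 core and 0.07 against 0.17 for YY1. It was 0.24 against 0.13 for E2F and 0.13 against 0.17 for the E-box. These are descriptions of letters in a fixed window, with no test.

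In both subunits most changes were positive, 75.0% of Mrpl and 79.3% of Mrps genes. The share that rose was 37.9% of Mrps and 20.8% of Mrpl genes, and the Mrpl median minus the Mrps median of the log2 fold changes was -0.102. To set the subunits side by side on each array, every gene was expressed as its deviation from its own 6-array mean. The median deviation of Mrpl genes was 0.080, 0.068 and 0.059 on the Rb1L/L arrays, against -0.102, -0.038 and -0.042 on the Rb1+/+ arrays. That of Mrps genes was 0.113, 0.108 and 0.081 on the Rb1L/L arrays, against -0.110, -0.088 and -0.125 on the Rb1+/+ arrays. Both subunits lay above 0 on each Rb1L/L array and below 0 on each Rb1+/+ array, while all tested genes stayed between -0.007 and 0.010. The Mrpl minus Mrps deviation was -0.032, -0.039 and -0.022 on the Rb1L/L arrays, against 0.008, 0.051 and 0.083 on the Rb1+/+ arrays; it carries no test, since the genes are not replicates.

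**Figure D3:**
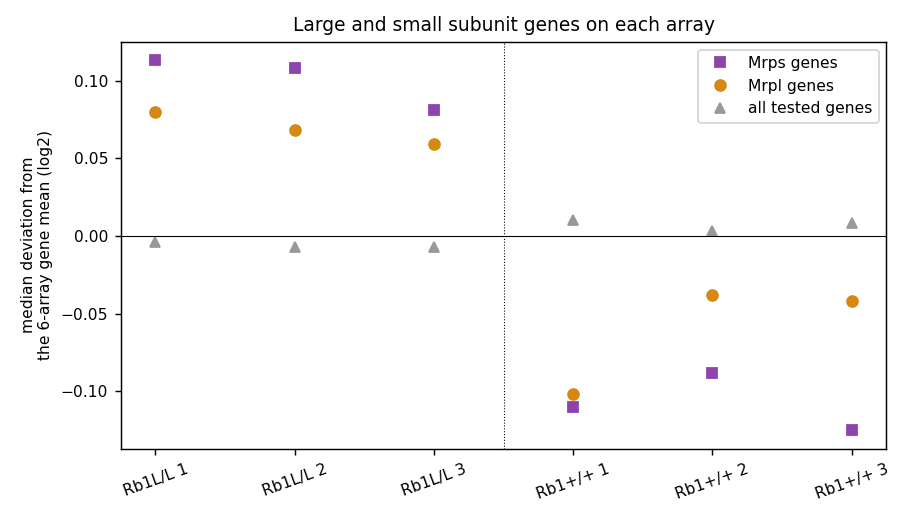
Median deviation of Mrps genes (squares), Mrpl genes (circles) and all tested genes (triangles) from each gene's own 6-array mean, in log2 units, on each array. Both subunits are above 0 on the 3 Rb1L/L arrays and below 0 on the 3 Rb1+/+ arrays, and all tested genes stay near 0.

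The gap between the subunits rested on how genes were assigned and on single arrays. Mrps30 and Mrps18a carry small subunit names but are known from structures of the mammalian ribosome to lie in the large subunit. With these 2 genes moved and Mrps36 left out, 11 of 50 large subunit genes (22.0%) and 9 of 26 small subunit genes (34.6%) rose, with medians of 0.15 and 0.19 and a difference of medians of -0.041. Without Rb1+/+ replicate 2 the difference by symbol was -0.031, without Rb1L/L replicate 3 it was -0.055 and without Rb1+/+ replicate 3 it was -0.058. It stayed below 0 in all these cases.

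Members with and without a bacterial counterpart were set side by side in a grouping made after the values were seen. Of 48 genes with a counterpart, 14 rose and none fell (median 0.16), and of 28 without one, 6 rose and 1 fell (median 0.15). Among the large subunit genes, 8 of 30 with a counterpart and 2 of 18 without one rose (medians 0.16 and 0.10). Among the small subunit genes it was 6 of 18 and 4 of 10 (medians 0.12 and 0.29). The order of the medians was thus opposite in the subunits, and no test was made.

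Mitochondrial ribosomal proteins that do not carry an Mrp name were few. Chchd1, a small subunit protein, read 9.09, 8.97 and 8.95 in Rb1L/L cultures, against 8.45, 8.53 and 8.41 in Rb1+/+ cultures. It rose (0.54 ± 0.06 SE, adjusted p = 0.00397) by about as much as Mrps5 and Mrps18c. Dap3, a small subunit GTP-binding protein, had 0.25 ± 0.07 (adjusted p = 0.0506, or 0.0377 with an intensity trend), Ptcd3 had -0.03 ± 0.06 and Gadd45gip1, of the large subunit, had -0.02 ± 0.08. Mrpl58, which rescues stalled ribosomes and is a member by name, had 0.08 ± 0.06.

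The genes that build the mitochondrial ribosome and work with it were read from 4 lists. Of 26 assembly and ribosomal RNA modification genes 3 rose and none fell (11.5% higher), with a median of 0.12. They were Fastkd2 (0.43 ± 0.09 SE, adjusted p = 0.0186), whose product binds the large ribosomal RNA, Rbfa (0.29, adjusted p = 0.0469), a small subunit maturation factor, and the helicase Dhx30 (0.21, adjusted p = 0.0474, or 0.065 with the replicate block). Rbfa read 9.19, 9.22 and 9.13 in Rb1L/L cultures, against 8.98, 8.96 and 8.74 in Rb1+/+ cultures, without overlap. Over the whole list 3 genes rose and 1 fell with the replicate block. Rbfa and Dhx30 did not pass after quantile normalization and passed in none of the 6 fits without 1 array. Whether these shares differ from that of the ribosomal proteins was not tested.

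Of 13 translation factors, the elongation factor Gfm1 rose (0.34 ± 0.06 SE, adjusted p = 0.0129). The recycling factor Mrrf fell by 0.21 (SE 0.05, adjusted p = 0.0458, or 0.0619 with the replicate block). The median of the list was 0.04. With the replicate block 2 of the factors rose and none fell. Of 19 mitochondrial aminoacyl-tRNA synthetases and subunits of the glutamyl-tRNA amidotransferase, which charge the tRNAs, Tars2 (0.24) and Qrsl1 (0.35) rose and Gatc fell by 0.32 (median -0.01). Tars2 did not pass after quantile normalization (adjusted p = 0.0679), nor Qrsl1 with the replicate block (0.0552). Gatc read 9.88, 9.88 and 9.85 in Rb1L/L cultures, against 10.22, 10.13 and 10.21 in Rb1+/+ cultures. Among 13 genes of mitochondrial transcription and messenger RNA handling, Slirp, which stabilises mitochondrial messages, rose by 0.62 ± 0.08 (SE; adjusted p = 0.00483). Tfb2m, a subunit of the mitochondrial transcription machinery, fell by 0.40 (SE 0.08, adjusted p = 0.0178). In these 4 lists together, 7 of 71 genes rose and 3 fell (9.86% and 4.23%), near the shares of all tested genes. The counts that rose changed without single arrays: assembly genes numbered 0 to 1, synthetase genes 0 to 1 and translation factors 0 to 2. With all arrays they numbered 3, 2 and 1. Mrrf passed in none of these 6 fits, Gatc and Slirp in all 6, Gfm1 in 5 and Tfb2m in 4.

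Nuclear regulators of mitochondrial genes were read as a further list. Of 11 tested, 3 rose (27.3%, beside 7.15% of all tested genes) and none fell. The median was 0.05, and 6 of the 11 were positive. The number that rose was 0 after quantile normalization and 0 to 1 in the 6 fits without 1 array. It was 1 without Rb1L/L replicate 3 or Rb1+/+ replicate 2. Nrf1, a factor that binds promoters of many mitochondrial genes, read 8.56, 8.54 and 8.58 in Rb1L/L cultures, against 8.33, 8.38 and 8.25 in Rb1+/+ cultures (0.24 ± 0.06 SE, adjusted p = 0.0325, or 0.0562 after quantile normalization). Gabpb1 (0.21, adjusted p = 0.045, or 0.0613 with the replicate block and 0.0753 after quantile normalization) and Gabpb2 (0.30, adjusted p = 0.0455), partners of the ETS factor Gabpa, also rose; Gabpb2 did not pass after quantile normalization (adjusted p = 0.057).

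Cytosolic ribosomal proteins and complex I, the first enzyme of the respiratory chain, were the nearest other groups. Of 49 cytosolic Rpl and Rps genes, 13 rose and none fell (26.5% higher, median 0.14), led by Rps21 (0.78 ± 0.08 SE) and Rps29 (0.59 ± 0.06). The mitochondrial set had 27.3% and 0.16 in the same fit. The cytosolic count rested on single arrays: it was 3 without Rb1L/L replicate 1, 4 without replicate 2 and 5 without replicate 3 of that genotype. It was 5, 16 and 6 without Rb1+/+ replicate 1, 2 and 3, and 0 without both arrays numbered 1; it was 19 with an intensity trend. The mitochondrial count, of 77 genes, rested on single arrays too: it was 9, 10 and 20 without Rb1L/L replicate 1, 2 and 3. It was 13, 20 and 14 without Rb1+/+ replicate 1, 2 and 3, and 1 without both arrays numbered 1. With an intensity trend it was 23. Of 35 genes with the Nduf symbols of complex I subunits, 5 rose and 3 fell (14.3% and 8.57%, median 0.09). Ndufs7 stood at -0.24 (adjusted p = 0.044, or 0.0657 after quantile normalization). Ndufa4 had 0.70, but its protein is now regarded as a part of cytochrome c oxidase and not of complex I. None of the 3 complex I genes that fell passed in any of the 6 fits without 1 array, and 2 passed with the replicate block and 1 with median centring or no filter. Differences between these groups were not tested.

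Other readouts moved with genotype in the same arrays. Of 14 proliferation genes 10 rose (71.4%, beside 7.15% of all tested genes) and none fell (median 0.37), led by Mcm6 (0.83). Their array medians ran from 10.39 to 10.45 in Rb1L/L and from 9.95 to 10.12 in Rb1+/+ cultures. Of 11 macrophage and blood markers tested, Adgre1, Cd14 and C1qa rose and Cx3cr1 fell (C1qa at an adjusted p of 0.0501 with the replicate block). That is 27.3% higher and 9.09% lower, beside 7.15% and 5.08% of all tested genes. The median log2 fold change was 0.27, and 10 of the 11 were positive, beside 43.7% of all tested genes. Array medians of these markers ran from 6.90 to 7.44 in Rb1L/L and from 6.84 to 7.18 in Rb1+/+ cultures. Aif1 and Cd74 lay under the filter. All 3 Rb1L/L values lay below the Rb1+/+ values for 38.5% of the fibroblast markers, beside 18.3% of all tested genes. The proliferation genes other than Mcm4 and Mcm5 that rose passed in all 6 fits without 1 array, whereas none of the 4 macrophage and blood markers did. Kdr alone rose among 8 epithelial and endothelial markers, and no muscle marker passed. Their part in the rise of the mitochondrial ribosomal protein genes was not tested.

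The title of the series concerns divergently paired genes, so the positions of the members were read from RefSeq promoter entries (assembly GRCm38.p6). Genes were taken as paired when both were tested and coding, pointed away from each other on opposite strands and started at most 1000 bp apart. Of the 68 members with an entry, 23 (33.8%) were in such a pair, beside 1170 of 11783 tested protein-coding genes with an entry (9.93%). Entries were not matched for Mrpl4, Mrpl13, Mrpl15, Mrpl19, Mrpl38, Mrpl54, Mrps28, Mrps34 and Mrps35. Of the paired members 7 of 23 (30.4%) passed, against 13 of 45 (28.9%) of the unpaired ones, with medians of 0.17 and 0.14.

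Within the 22 pairs both genes passed in 1 pair, the member alone in 6, the partner alone in 4 and neither in 11. The signs matched in 14 pairs. Of the 21 partners outside the set 5 passed (23.8%), beside 12.2% of all tested genes. The same pair counts were not made for the 586 pairs of all tested genes, so whether partners changed together was not tested. With the replicate block Fau was lost among the partners, and Mrpl46 and Mrpl47 were gained among the members. Mrpl18 rose by 0.60, whereas Tcp1, a chaperonin subunit that starts 238 bp away, read 11.48, 11.40 and 11.48 in Rb1L/L cultures, against 11.38, 11.50 and 11.45 in Rb1+/+ cultures (0.01 ± 0.06 SE, adjusted p = 0.94). Mrps5 (0.55) lay beside the zinc finger gene Zfp661 at -0.05 ± 0.10, Mrpl21 (0.48) beside the helicase gene Ighmbp2 at -0.05 ± 0.05, and Mrps27 (0.41) beside the mitochondrial RNA-binding gene Ptcd2 at 0.07 ± 0.07. Mrpl50, which fell, lay 93 bp from the zinc finger gene Zfp189 at -0.23 ± 0.07 (adjusted p = 0.0639). The difference between the genes of a pair was not tested.

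In the opposite cases the partner rose. Mitd1, which acts in the last step of cell division, read 8.09, 8.25 and 8.16 in Rb1L/L cultures, against 7.49, 7.66 and 7.52 in Rb1+/+ cultures (0.61 ± 0.07 SE, adjusted p = 0.00353), beside Mrpl30 at 0.24 ± 0.07 (adjusted p = 0.0687). The proteasome subunit gene Psma2 read 10.00, 9.91 and 9.80 in Rb1L/L cultures, against 9.30, 9.38 and 9.19 in Rb1+/+ cultures (0.61 ± 0.08 SE, adjusted p = 0.00428), beside Mrpl32 at 0.14 ± 0.06. The kinetochore gene Ska3 (0.39) and Fau (0.23), which encodes a cytosolic ribosomal protein, rose beside Mrpl57 at -0.01 and Mrpl49 at 0.14; Fau did not pass with the replicate block (adjusted p = 0.0568, against 0.0419 without it).

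The pair in which both passed was Mrpl51 with Ncapd2, a subunit of condensin I. Ncapd2 read 9.50, 9.64 and 9.67 in Rb1L/L cultures, against 8.93, 9.19 and 9.23 in Rb1+/+ cultures (0.49 ± 0.09 SE, adjusted p = 0.0152). The brightest Mrpl51 cluster read 10.28, 10.36 and 10.26 in Rb1L/L cultures, against 9.97, 9.98 and 10.15 in Rb1+/+ cultures (0.27 ± 0.07 SE, adjusted p = 0.0405). By its number this cluster lies among those of chromosome 2, while Mrpl51 and Ncapd2 are on chromosome 6. The other Mrpl51 cluster, numbered among those of chromosome 6, read 9.37, 9.24 and 9.14 in Rb1L/L cultures, against 8.91, 9.23 and 9.15 in Rb1+/+ cultures. Its groups overlapped and it did not pass (0.15 ± 0.10 SE, adjusted p = 0.34).

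One pair joined the subunits. Mrpl46 and Mrps11 start 42 bp apart on chromosome 7. Mrps11 read 9.00, 9.14 and 9.21 in Rb1L/L cultures, against 9.14, 9.06 and 9.32 in Rb1+/+ cultures (-0.06 ± 0.09 SE). On the Rb1L/L arrays Mrpl46 was lowest where Mrps11 was highest, in replicate 3, whereas on the Rb1+/+ arrays both were lowest in replicate 2.

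**Figure D4:**
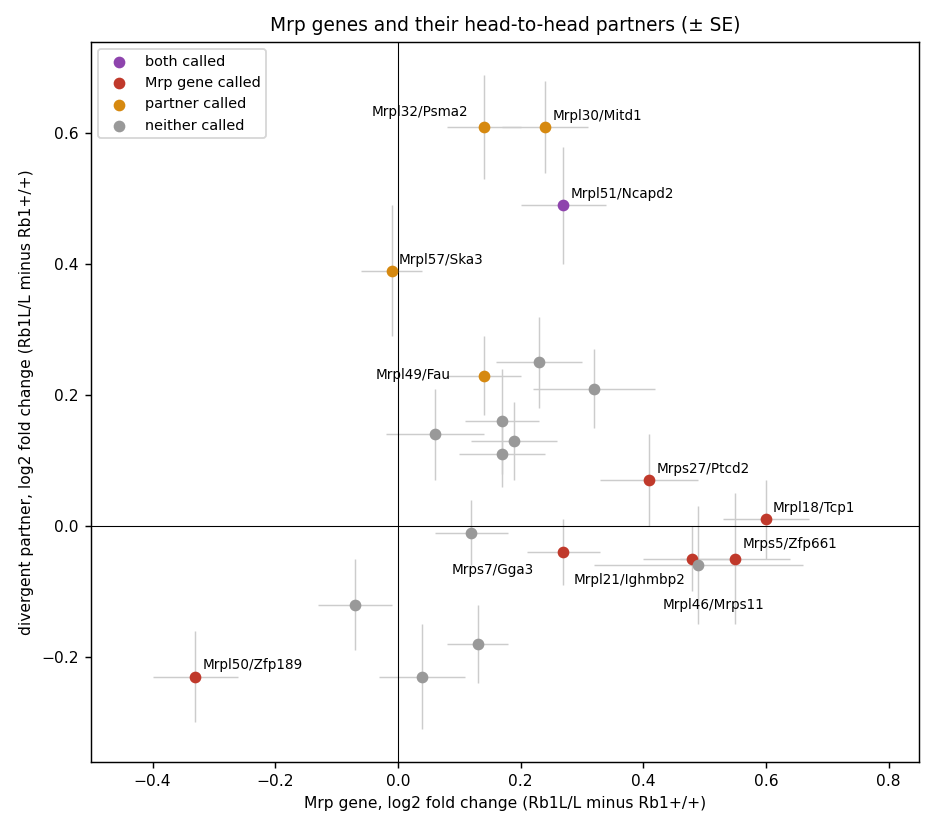
Log2 fold change (Rb1L/L minus Rb1+/+) of each paired Mrp gene on the x axis and of its head-to-head partner on the y axis, with bars of 1 SE, for 22 pairs. In the 6 pairs with a red point only the Mrp gene passed and the partner lies between -0.23 and 0.07, in the 4 with an orange point only the partner passed, and the purple point, Mrpl51 and Ncapd2, is the pair in which both passed.

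Some values can hold signal of near-identical copies. Of the 77 clusters used, 72 lay by their numbers among clusters of the gene's own chromosome, and the exceptions were Mrpl27, Mrpl41, Mrpl48, Mrpl51 and Mrps33. The clusters used for Mrpl27 and Mrpl48 lay among those of chromosomes 18 and 4, where RefSeq places the pseudogenes Mrpl27-ps and Mrpl48-ps. For Mrps33 the own-chromosome cluster also rose (0.39 ± 0.06 SE, adjusted p = 0.00868). For Mrpl41 it gave 0.02 ± 0.07 and for Mrpl27 0.17 ± 0.07, and neither gene passed with either cluster. Mrpl23 has a second cluster numbered among those of chromosome 2, where Mrpl23-ps1 lies, with 10.64, 10.66 and 10.61 in Rb1L/L cultures, against 9.77, 10.08 and 9.55 in Rb1+/+ cultures, almost the values of the first.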

How the data were processed

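Total RNA of 6 MEF cultures was measured on Affymetrix mouse gene arrays, 1 array per culture. The deposited values are on a log2 scale and were summarised by RMA, with Partek also named, per the submitters' processing notes; the sources used here give no version, setting or genome build. RMA brings the arrays near a common distribution, so a true shift common to most genes cannot be seen. Small differences remained: array medians ran from 6.393 to 6.449, and the median log2 fold change over all tested genes was -0.0212. Values ran from 2.28 to 14.16. Arrays carry no read depth, and their number limits the precision.

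Of 35556 transcript clusters, 21789 had 1 symbol in the platform annotation, 1621 several and 12146 none. A gene was tested when its mean passed a floor set at the 90th percentile of 1190 sensory receptor genes of the olfactory and vomeronasal families. The test was limma's (lmFit, eBayes, version 3.58.1 under R 4.3.3), with Benjamini-Hochberg adjustment over 15409 genes; the steps were tested on simulated data. P-values measure the spread between these cultures, which the labels do not tie to single embryos. Arrays of the same number deviated together from their group means (r = 0.30, 0.24 and 0.30) and the design text speaks of pairs. The number was therefore used as a block in an added fit. The main fit has no block, so its p-values and counts do not use this pairing. The cultures numbered 1 are also those of male type, so for them pairing and sex cannot be told apart. A blocked fit is given where it changes the call of a named gene.

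The members and lists were chosen with earlier results of these data known. Named were, per subunit and direction, up to 8 members that passed with the smallest p, those not passing with the largest and smallest changes, genes of disputed assignment, up to 3 genes per further list and direction, and up to 8 pairs. Mrpl51, Mrpl16, Mrps25, Mrps7, Mrps14, Mrpl12, Mrpl55, Mrps24, the promoters shown and the pairs of Ska3, Fau and Mrps11 were chosen after their values were seen, as was the grouping by bacterial counterpart. Alternatives covered the block, variance moderation, array weights, scaling, filters, clusters, subunit assignment and left-out arrays.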

Additional observations from a re-analysis of the deposited data

How the results depend on the processing

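With 3 arrays per genotype the counts rested on each array. Without 1 array the members that rose numbered 9 to 20, those that fell 0 to 1, and all genes that passed 622 to 1441; the Mrpl minus Mrps difference of medians ranged from -0.106 to -0.031 and the median over members from 0.154 to 0.181. The members that rose numbered 9 without Rb1L/L replicate 1, 10 without Rb1L/L replicate 2, 13 without Rb1+/+ replicate 1 and 14 without Rb1+/+ replicate 3. All genes that passed numbered 630 without Rb1L/L replicate 1, 622 without replicate 2 and 1185 without replicate 3 of that genotype. They numbered 822 without Rb1+/+ replicate 1 and 913 without Rb1+/+ replicate 3. Mrpl11, Mrpl15, Mrpl18, Mrpl21, Mrpl23, Mrps5, Mrps18a, Mrps18c and Mrps33 passed in all 6 of these fits. The other 13 were lost in at least 1, and all 22 kept their sign. Among the 13, Mrpl16 passed in none of these fits and Mrpl51 in 1. Mrpl13, Mrpl35, Mrps7, Mrps14, Mrps25 and Mrps27 passed in 2 each. Without both arrays numbered 1, 2 or 3, the members that rose numbered 1, 7 and 9, none fell, and all genes that passed numbered 92, 472 and 460. The difference of medians was then -0.032 without those numbered 2 and -0.040 without those numbered 3, and -0.041 with subunits assigned by structure. The fits without an array or a pair of arrays have fewer samples; otherwise the cause was not tested.

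With the replicate block 26 members passed (2230 over all genes). All 22 were shared and Mrpl46, Mrpl47, Mrpl48 and Mrps30 were gained. The dimmer Mrpl47 cluster read 6.67, 6.76 and 6.73 in Rb1L/L cultures, against 6.78, 6.68 and 6.65 in Rb1+/+ cultures, with overlap. For Mrpl48 the cluster numbered among those of chromosome 4 is the only one. The number that fell was 2 with an intensity trend and 3 after quantile normalization, beside 974 and 913 of all tested genes. Mrpl51 was lost with no filter (adjusted p = 0.0501), with the mean of its clusters (0.0987) and with the own-chromosome cluster, an alternative chosen after seeing the data (0.34). Mrpl16 was lost after quantile normalization (adjusted p = 0.0609) and with no filter (0.0531). Median centring gave 26 members higher and 1 lower. Over all tested genes it gave 1259 higher and 596 lower, beside 1102 and 783 in the main fit. Leaving out pseudogene symbols or using current symbols changed no member. No named gene that passed changed direction in any setting.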
